A study of Mus musculus with 283 samples.

Results

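The 10 end-stage tumours of the mouse mammary line KPB25L-UV, of 283 samples in a study of checkpoint therapy in mouse models of triple-negative breast cancer, were compared by therapy: 4 came from mice given anti-PD1 and anti-CTLA4 and 6 from mice given no therapy. They were chosen by their labels for model, time and therapy, with no measured value. KPB tumours come from mice in which Cre recombinase driven by the keratin 14 promoter removes Trp53 and Brca1. By their labels, both arms therefore share this loss in the tumour cells, which a signal summed over a whole gene does not check. The library labelled untreated 2 had the profile of another line, T11, as given below. KPB25L is a line of this origin and KPB25L-UV its ultraviolet-exposed derivative, and both are labelled sensitive to the therapy. Cells were placed in the mammary gland of syngeneic mice, which keep their own immune system, and mice were assigned to an arm once tumours reached 5 mm across. Therapy was 125 ug of anti-CTLA4 and 10 mg/kg of anti-PD1, given into the peritoneum in 100 ul. The labels give no day for the end stage, no age for the mice, and no control antibody for the untreated arm. For reference, 2 further comparisons were used: KPB25L-UV at 7 days of the same therapy (6 treated, 4 untreated) and the parental KPB25L at the end stage (3 treated, 6 untreated). Each library is whole tumour RNA, and the labels of 8 of the 10 carry a number of their own, with none for untreated 5 and 6. The numbers of the 4 treated tumours recur on 4 treated T11-UV libraries at 7 days, which are among the libraries of the fit, and whether these share mice is not stated.

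PD1 and CTLA4 are inhibitory receptors of T cells. CTLA4 limits priming by competing for the B7 ligands of antigen-presenting cells, and PD1 restrains T cells that meet its ligands in the tumour. Antibodies that block them release T cell killing, which runs through interferon gamma, granzymes and perforin and through recognition of peptides on MHC class I.

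All values below are log2(signal + 1), where the signal is the expression value as the authors deposited it, scaled to a common upper quartile in each library. Differences are treated minus untreated on that scale, with the standard error of the limma model, and a gene is called at an adjusted p below 0.05 over 20845 genes. The 4 treated libraries shared 1 sequencing run, untreated 1 to 4 shared another, and untreated 5 and 6 came from a further run, by the run names in the file header, so run and therapy cannot be told apart in this comparison. From the commonest low value of each library, depth was estimated at 38400000 to 59100000 reads in the treated and at 25900000 to 46700000 reads in the untreated libraries. The library labelled untreated 2 went against its label: Sox2 was 1702 there on the linear scale and at most 1.3 in the other 9. Its mean over 50 genes that mark untreated T11 tumours at 3 days was 8.48, against 1.68 to 2.96 in the other 9, and its mean over 50 KPB25L markers was 2.43, against 9.0 to 10.66. T11 tumours lay between 1.05 and 2.96 on the KPB25L markers. Results are therefore given with all 10 libraries and without the KPB25L-UV libraries whose Sox2 was above 100, called the Sox2 libraries, which removes untreated 2 here and 4 of the 10 libraries at 7 days. Epcam, a surface protein of epithelial cells, was 13.68 to 15.25 in the 9 other libraries and 6.19 in untreated 2. Treated 3 and treated 4 also stood apart, as given beside the results they touch.

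With all libraries, 1244 genes were called, which is 5.97% of those tested. With therapy 697 were higher (3.34%) and 547 lower (2.62%). Without the Sox2 libraries 837 were called (4.02%), 478 higher (2.29%) and 359 lower (1.72%). Of the 1244, 449 differed by more than 2-fold. The calls rest on a spread shared by all 192 tumour libraries of the fit. With the spread set by these 10 libraries alone, 4 genes were called: AY036118, Gm26649, Gm9794 and Lars2. The residual SD of the median gene was 0.633 in the 10 libraries, 0.559 without untreated 2 and 0.582 over all libraries. Leaving out 1 library at a time gave between 457 calls (without treated 2) and 2348 (without treated 3), with 717 without untreated 2 and 750 without treated 1. Quantile normalization turned the balance of calls from 697 higher and 547 lower to 635 higher and 850 lower.

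Of 666 tested genes in 45 lists of cell types and pathways, 15 were called (2.25%, against 5.97% of all genes), 7 higher and 8 lower (3.34% and 2.62% of all genes). Without the Sox2 libraries 18 were called, 6 higher and 12 lower, where 2.29% and 1.72% of all genes were. Among the 298 tested immune genes, 3 were higher and 1 lower, with a median difference of 0.44 beside 0.002 over all genes tested. The same 298 genes held 68 higher and 6 lower calls at 7 days, where 8% of all genes were called higher and 11.4% lower (19.4% in either direction). Apobec3, a cytidine deaminase, and Trp53 were the called members not described further. Both passed without the Sox2 libraries only, at 0.74 (limma adjusted p = 0.0156) and 0.82 (adjusted p = 0.0494). In bulk tumour RNA, more cells of a type and more RNA per cell cannot be told apart.

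Among the T cell genes, Tnfrsf4 rose. It encodes OX40, a costimulatory receptor of activated and regulatory T cells. Its values were 8.11, 7.72, 7.92 and 8.27 in treated 1 to 4, and ran from 5.97 over a median of 6.60 to 7.05 in the untreated. Every treated tumour lay above every untreated one. The difference was 1.46 ± 0.45 (limma adjusted p = 0.0348) with all libraries and 1.56 ± 0.47 (adjusted p = 0.0359) without the Sox2 libraries. The call was lost without any 1 of treated 1, treated 2, treated 4, untreated 3 or untreated 4, at an adjusted p of up to 0.0891, while the difference stayed between 1.34 and 1.56.

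Of 9 regulatory T cell genes, 1 was called lower with all libraries, where 2.62% of all genes were. Without the Sox2 libraries 1 was called higher and 1 lower, where 2.29% and 1.72% of all genes were. These were Foxp3 and Ikzf2, 2 transcription factors of regulatory T cells, which moved apart. Ikzf4, another such factor in the list, was not called. Foxp3, the factor that defines these cells, was 6.64, 6.37, 7.79 and 6.71 in treated 1 to 4 and 4.38 to 6.71 (median 5.45) in the untreated. Its difference was 1.27 ± 0.44 with all libraries (limma adjusted p = 0.0605), and it passed the threshold without the Sox2 libraries at 1.49 ± 0.45 (adjusted p = 0.0362). Untreated 2 and 5, at 6.71 and 6.60, lay above treated 2, and the other 4 untreated tumours lay below every treated one. Ikzf2, which encodes Helios, fell. Its values were 7.09, 5.58, 6.58 and 7.48 in treated 1 to 4, against 7.08 to 8.51 (median 7.96). Only untreated 4, the lowest untreated tumour, lay within the treated range. That tumour held Ikzf2 at 7.08 with the T cell gene Cd3e at 0.00, and which cells gave the Ikzf2 signal was not tested. The difference was -1.27 ± 0.29 (adjusted p = 0.00238), or -1.17 ± 0.29 without the Sox2 libraries (adjusted p = 0.0103), and the call was lost without treated 2 (adjusted p = 0.0854). At 7 days Ikzf2 differed by 0.15, and the end-stage effect was lower than the 7-day effect by 1.43 (adjusted p = 0.0274 for the difference of effects).

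None of the 18 genes of the T cell receptor complex and its signalling was called, and 17 of the 18 differences were above 0, with a median of 0.71. Cd3e, a chain of the receptor complex, was 7.18, 4.99, 8.24 and 6.96 in treated 1 to 4. In the untreated it ran from 0.00 (untreated 4) over 5.54 to 6.19. Treated 1, 3 and 4 lay above all untreated tumours and treated 2 lay below 5 of them. The difference of 2.16 ± 0.77 had a limma adjusted p of 0.0726. Cd4, the coreceptor of helper T cells, had 9.92, 8.89, 9.84 and 9.20 against 6.75 to 9.32, a difference of 1.13 ± 0.48 (adjusted p = 0.141). Cd8a, the coreceptor of cytotoxic T cells, had 7.01, 4.57, 8.49 and 6.10 against 1.33 to 6.89 (adjusted p = 0.513).

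The cytotoxic genes were high in 1 treated tumour. Gzmb, a granzyme that triggers apoptosis in target cells, was 12.61 in treated 3 and 7.86, 5.36 and 6.82 in treated 1, 2 and 4, against 5.19 to 9.56 (median 6.82) in the untreated. Prf1, which encodes the pore-forming perforin, was 12.90 in treated 3 and 7.09, 5.46 and 5.90 in the others, against 3.38 to 10.06. Apart from treated 3, the treated tumours lay within the range of all 6 untreated libraries, untreated 2 included, for both genes. None of 18 genes of the cytotoxic list was called. Its median difference was 0.80 without the Sox2 libraries and 0.01 when treated 3 was left out as well. The mean level of the list was 9.62 in treated 3, against 5.15 to 6.96 in treated 1, 2 and 4 and 4.75 to 6.64 in the untreated. The lowest untreated value was that of untreated 2. The other untreated tumours ran from 5.73, and treated 2 (5.15) and treated 4 (5.52) lay below them. Ncr1, an activating receptor of NK cells, was 8.04 in treated 3 and 1.88 to 5.78 in the other treated tumours, and 0 of 9 NK cell genes were called.

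**Figure D1:**
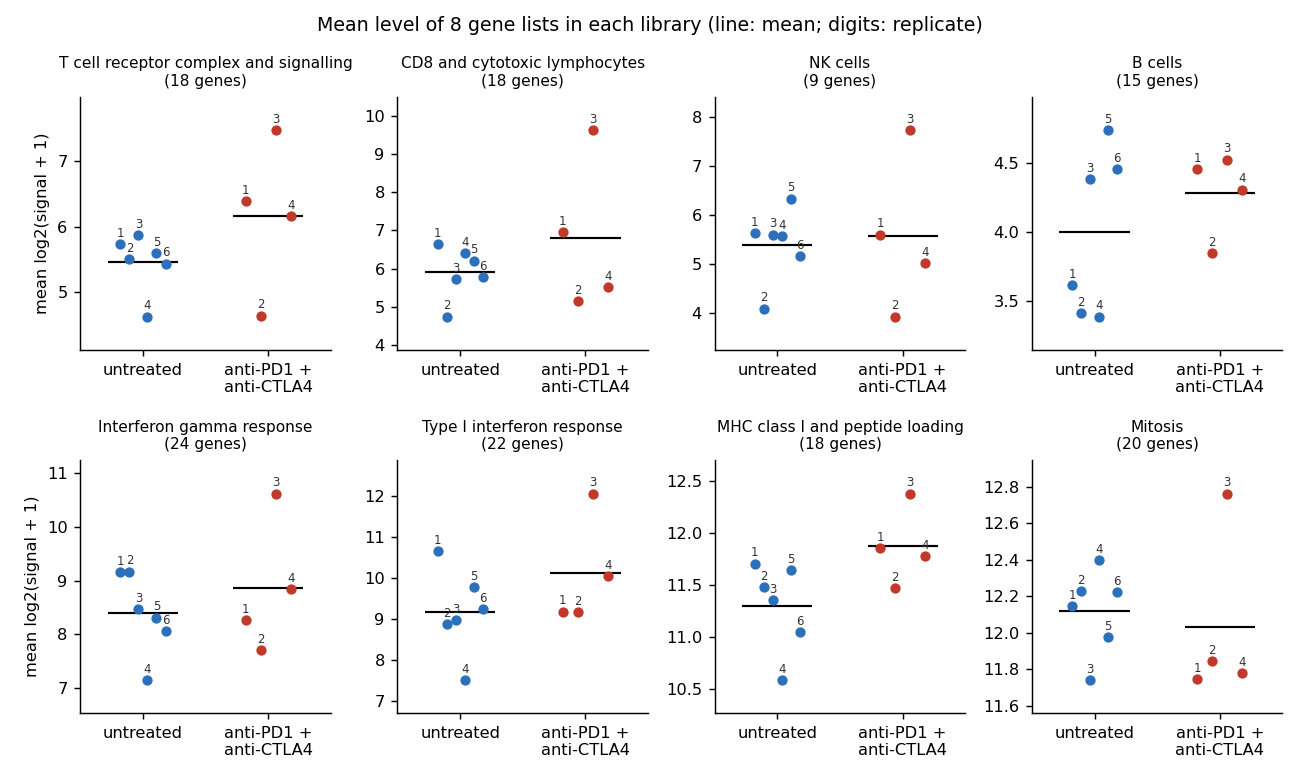
Mean log2(signal + 1) of 8 gene lists (y axis) in each untreated (blue) and treated (red) end-stage tumour, with digits giving the replicate and lines the group mean. Treated 3 is the highest of the 10 tumours in the T cell, cytotoxic, NK, interferon, MHC class I and mitosis lists. Treated 2 lies inside the untreated range in the T cell and interferon gamma lists. In the cytotoxic list it does so only with untreated 2 counted.

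The targets of the therapy and their ligands were not called. Pdcd1, which encodes PD1, was 6.09, 6.06, 8.48 and 5.83 in treated 1 to 4 and 5.07 to 6.63 in the untreated (difference 0.84 ± 0.66, limma adjusted p = 0.492). Ctla4 was 4.66, 3.98, 8.82 and 5.80 against 3.84 to 5.71 (1.01 ± 0.68, adjusted p = 0.41). Cd274, which encodes the PD1 ligand PD-L1, was 10.86 in treated 3 and 7.86 to 8.63 in the other treated tumours, against 7.80 to 9.13. For all 3 genes treated 3 lay above every untreated tumour and at least 1 other treated tumour lay inside their range. Of 18 checkpoint genes, Lgals9, which encodes the ligand galectin-9, was called higher, where 3.34% of all genes were. It was 12.82, 11.90, 13.04 and 12.55 against 11.11 to 12.10, a difference of 0.97 ± 0.30 (adjusted p = 0.0305). Treated 2 lay below the highest untreated tumour. The call was lost without the Sox2 libraries (0.87 ± 0.31, adjusted p = 0.0815), and without any 1 of treated 1, 3 or 4 or untreated 2 or 4 (adjusted p up to 0.103).

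B and plasma cell genes were not called at the end stage, 0 of 15 and 0 of 16, with median differences of 0.09 and 0.10 without the Sox2 libraries. Igkc, the kappa light chain constant gene, was 7.43, 10.63, 7.20 and 7.55 against 3.33 to 9.31, a difference of 1.96 ± 1.28 (limma adjusted p = 0.392). Treated 2 was the highest of the 10 for Igkc and the lowest of the treated for Cd3e and Cd8a.

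Interferon-induced genes followed the same tumour. Of 22 type I interferon genes all 22 differences were above 0, with a median of 0.97 with all libraries, 0.90 without the Sox2 libraries and 0.25 with treated 3 also left out. The mean level of the list was 9.17, 9.16, 12.05 and 10.05 in treated 1 to 4 and ran from 7.51 (untreated 4) to 10.64 (untreated 1). Rtp4, an interferon-induced transporter protein, was its 1 called member, at 1.5 ± 0.49 (limma adjusted p = 0.0474), where 3.34% of all genes were called higher. It was 12.88 in treated 3 and 10.67 to 11.03 in the other treated tumours, against 7.94 to 11.23. The call was lost without the Sox2 libraries (adjusted p = 0.108), and in 7 of 10 comparisons that left out 1 library: each treated one and untreated 2, 3 and 4 (adjusted p up to 0.229). Cxcl10, a chemokine that draws CXCR3-bearing T cells, was 8.5, 8.03, 13 and 10.42 against 6.87 to 10.96 (0.91 ± 0.73, adjusted p = 0.504). None of 24 interferon gamma response genes was called, and their median difference was 0.65 without the Sox2 libraries and 0.00 with treated 3 also left out.

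None of 18 genes of MHC class I presentation was called. Without untreated 2, the groups did not overlap for 2 of the 18, B2m and Tap2. B2m, the light chain of MHC class I, was 15.74, 15.47, 16.15 and 15.51 in treated 1 to 4 and 14.44 to 14.94 (median 14.58) in the untreated. All treated tumours lay above all untreated ones. The difference was 1.08 ± 0.37 (limma adjusted p = 0.0617), and 1.14 ± 0.37 (adjusted p = 0.0524) without the Sox2 libraries. Tap2, a subunit of the peptide transporter, was 12.49, 12.11, 12.41 and 12.20 against 10.03 to 11.77, again without overlap (1.31 ± 0.48, adjusted p = 0.0779). Genes whose treated values all exceeded all untreated ones made up 1.71% of those tested, and 2.51% without untreated 2. Genes whose treated values all lay below made up 1.27%, and 2.04% without untreated 2. The class I heavy chain H2-K1 overlapped, at 14.87 to 15.33 against 13.87 to 14.87 (0.66 ± 0.42, adjusted p = 0.369). Of the 18 differences 15 were above 0. None of 11 MHC class II genes was called or stood apart, with a median difference of 0.22.

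The effect of therapy at 7 days was compared with the end-stage effect in KPB25L-UV, with separate tumours at each time. The medians of the lymphocyte lists were larger at 7 days. Without the Sox2 libraries (4 treated and 2 untreated left at 7 days), the T cell receptor list had a median difference of 3.21 at 7 days and 0.63 at the end stage, the cytotoxic list 2.93 and 0.80, and the B cell list 2.42 and 0.09. With treated 3 also left out, the end-stage medians were 0.30 for the T cell receptor list, 0.01 for the cytotoxic list, -0.05 for the B cell list and -0.96 for the NK list. A test of the difference of effects called few of these genes: 1 of 18 in the T cell receptor list (Lck, the kinase that starts receptor signalling, lower at the end stage by 2.60, limma adjusted p = 0.0313), 0 of 18 cytotoxic and 0 of 15 B cell genes. With all libraries Lck was not called (adjusted p = 0.195). Lck was picked out after its values were seen. Over all genes, 622 effects differed between the times (2.98%), 482 (2.31%) above and 140 (0.672%) below the 7-day effect. The count was 1044 (5.01%) without the Sox2 libraries, 873 above (4.19%) and 171 below (0.82%). With only the libraries of the 4 groups setting the spread 5 genes differed.

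**Figure D2:**
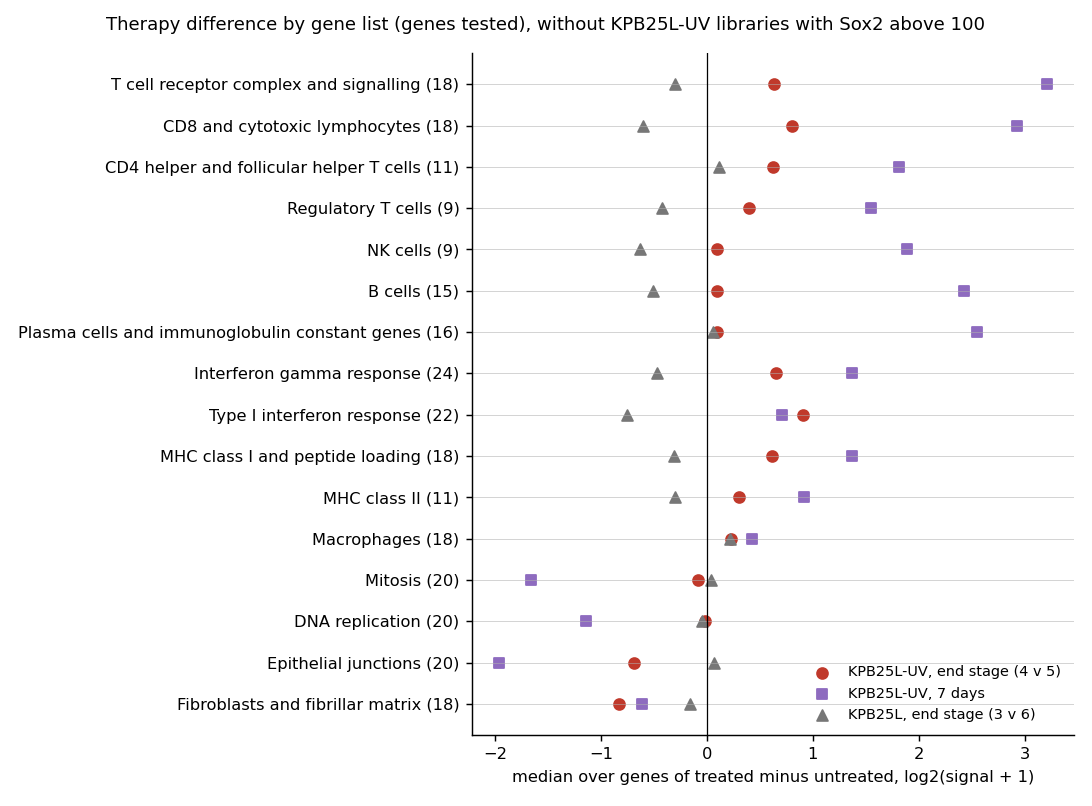
Without the KPB25L-UV libraries of Sox2 above 100: median over the tested genes of each list (number in brackets) of treated minus untreated log2(signal + 1) (x axis) in KPB25L-UV at the end stage (red circles), KPB25L-UV at 7 days (purple squares) and KPB25L at the end stage (grey triangles). Lymphocyte lists lie between 0.09 and 0.80 at the end stage and between 1.55 and 3.21 at 7 days, and the mitosis and replication lists lie near 0 at the end stage and below -1 at 7 days.

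Cell division genes differed between the times. At 7 days the 20 mitosis genes had a median difference of -1.22, and at the end stage -0.16, with 0 of 20 called at the end stage. The end-stage median was -0.08 without the Sox2 libraries and -0.37 with treated 3, the tumour highest in this list, also left out. The effects differed for 5 of 20, each higher at the end stage, as were 2.31% of all genes. These were Plk1, Ccnb2, Kif11, Kif20a and Tpx2, named here after their values were seen. Plk1, a kinase that drives entry into mitosis, was 12.79, 12.59, 13.01 and 12.35 in treated 1 to 4 and 11.66 to 12.44 in the untreated at the end stage. Treated 4 lay inside the untreated range and the other 3 above it. Its end-stage difference of 0.54 stood beside -1.18 at 7 days (difference of effects 1.73, limma adjusted p = 0.00636). Kif20a, a kinesin of cell cleavage, differed by -0.18 at the end stage and -1.98 at 7 days (difference 1.80, adjusted p = 0.0138). The 7-day differences of the mitosis list were larger without the Sox2 libraries, at a median of -1.66, and 9 of 20 effects then differed. Of 20 DNA replication genes 4 effects differed, all higher at the end stage, and 7 without the Sox2 libraries. Tk1, thymidine kinase, was one, at 0.15 and -1.02 (adjusted p = 0.0207). Mki67, the proliferation marker, was 11.81, 12.29, 14.50 and 12.77 in treated 1 to 4 at the end stage and 12.75 to 13.80 in the untreated, so the highest and the 2 lowest values were all treated (-0.31 ± 0.30, adjusted p = 0.605).

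In the list of driver genes, the effects on Myc, Cdkn2a and Fgfr1 also differed between the times. Myc, the growth-promoting transcription factor, was 12.98, 14.02, 13.48 and 12.66 in treated 1 to 4 and 12.42 to 13.71 in the untreated. Treated 2 was the highest of the 10 and the other treated tumours lay inside the untreated range. It differed by 0.28 at the end stage and -1.42 at 7 days (difference of effects 1.70, limma adjusted p = 0.0165). Cdkn2a, the locus of the p16 and p19Arf inhibitors, differed by 0.12 and -2.32 (difference 2.44, adjusted p = 0.0232). Fgfr1, a growth factor receptor, differed by 0.56 and -0.95 (difference 1.51, adjusted p = 0.0041). The 2 haemoglobin genes Hba-a2 and Hbb-bt went the other way, at -1.5 and -1.28 at the end stage against 2.78 and 2.74 at 7 days. Their differences of effects were -4.28 and -4.02 (adjusted p = 0.0259 and 0.0433). Without the Sox2 libraries these were of similar size, -4.17 and -4.21, and did not pass the threshold (adjusted p = 0.0613 and 0.0646). These 5 genes were also picked out after their values were seen.

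Of 19 stress and immediate early genes 3 were called, all higher: Zfp36, Nr4a1 and Junb. The count was 2 of 19 without the Sox2 libraries, and over all genes 3.34% and 2.29% were. Immediate early genes are switched on within minutes of a signal without new protein synthesis. Their promoters are shown because these were the called members. The 250 bases before each start site, from RefSeq on GRCm38.p6 and read in the direction of transcription, lie at chr7:28379229-28379478 (minus strand) for Zfp36, chr15:101266596-101266845 (plus strand) for Nr4a1 and chr8:84978749-84978998 (minus strand) for Junb. Capitals mark matches on either strand to the CArG box bound by serum response factor, or to TGACG, the core of the cyclic AMP response element, which reads CGTCA on the other strand.
Zfp36: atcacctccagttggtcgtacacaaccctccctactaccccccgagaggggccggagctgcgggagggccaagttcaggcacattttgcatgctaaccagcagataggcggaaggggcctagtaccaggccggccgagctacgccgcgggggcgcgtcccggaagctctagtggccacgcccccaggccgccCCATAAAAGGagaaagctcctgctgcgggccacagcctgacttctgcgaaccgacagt
Nr4a1: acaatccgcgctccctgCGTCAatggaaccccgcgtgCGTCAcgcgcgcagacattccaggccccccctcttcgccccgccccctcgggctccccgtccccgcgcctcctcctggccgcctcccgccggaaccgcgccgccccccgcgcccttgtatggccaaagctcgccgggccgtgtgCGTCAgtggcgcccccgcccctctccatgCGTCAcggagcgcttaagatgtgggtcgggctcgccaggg
Junb: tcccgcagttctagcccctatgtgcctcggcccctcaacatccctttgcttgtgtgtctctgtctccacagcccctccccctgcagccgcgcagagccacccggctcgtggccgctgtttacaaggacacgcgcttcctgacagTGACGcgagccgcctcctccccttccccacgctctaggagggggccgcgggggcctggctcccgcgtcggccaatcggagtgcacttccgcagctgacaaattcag
Zfp36 held 1 CArG box and no TGACG, Nr4a1 4 TGACG matches and no CArG box, and Junb 1 TGACG match. Of 32851 RefSeq promoters, 1.47% held a CArG box and 17.8% a TGACG in this window.

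Zfp36, which encodes the mRNA-destabilising protein tristetraprolin, was 11.80, 12, 12.06 and 12.54 in treated 1 to 4 and 10.42 to 11.37 (median 10.80) in the untreated. The groups did not overlap. The difference was 1.24 ± 0.26 (limma adjusted p = 0.0013), or 1.15 ± 0.28 without the Sox2 libraries (adjusted p = 0.00643), and it passed without any 1 library. Nr4a1, an orphan nuclear receptor induced by T cell receptor signals among others, was 10.19, 10.12, 10.62 and 12.40 against 9.42 to 10.24. Treated 1 and 2 lay inside the untreated range and treated 4 far above it. Its difference of 0.95 ± 0.30 (adjusted p = 0.0361) became 0.43 without treated 4 (adjusted p = 0.459), and it was also lost without untreated 1, 3 or 4. Treated 4 also held the highest mean of 14 skeletal muscle genes (17.47, against 5.33 to 6.86 in the other treated and 3.26 to 14.42 in the untreated tumours), and the part of muscle in this result was not tested. Junb, a subunit of the AP-1 factor, was 15.47, 15.08, 14.66 and 14.33 against 12.24 to 14.60. Treated 4 lay inside the untreated range, whose lowest value was untreated 2. Its call (0.99 ± 0.30, adjusted p = 0.0296) was lost without the Sox2 libraries (0.66 ± 0.29, adjusted p = 0.177), and without treated 1, treated 2 or untreated 6.

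**Figure D3:**
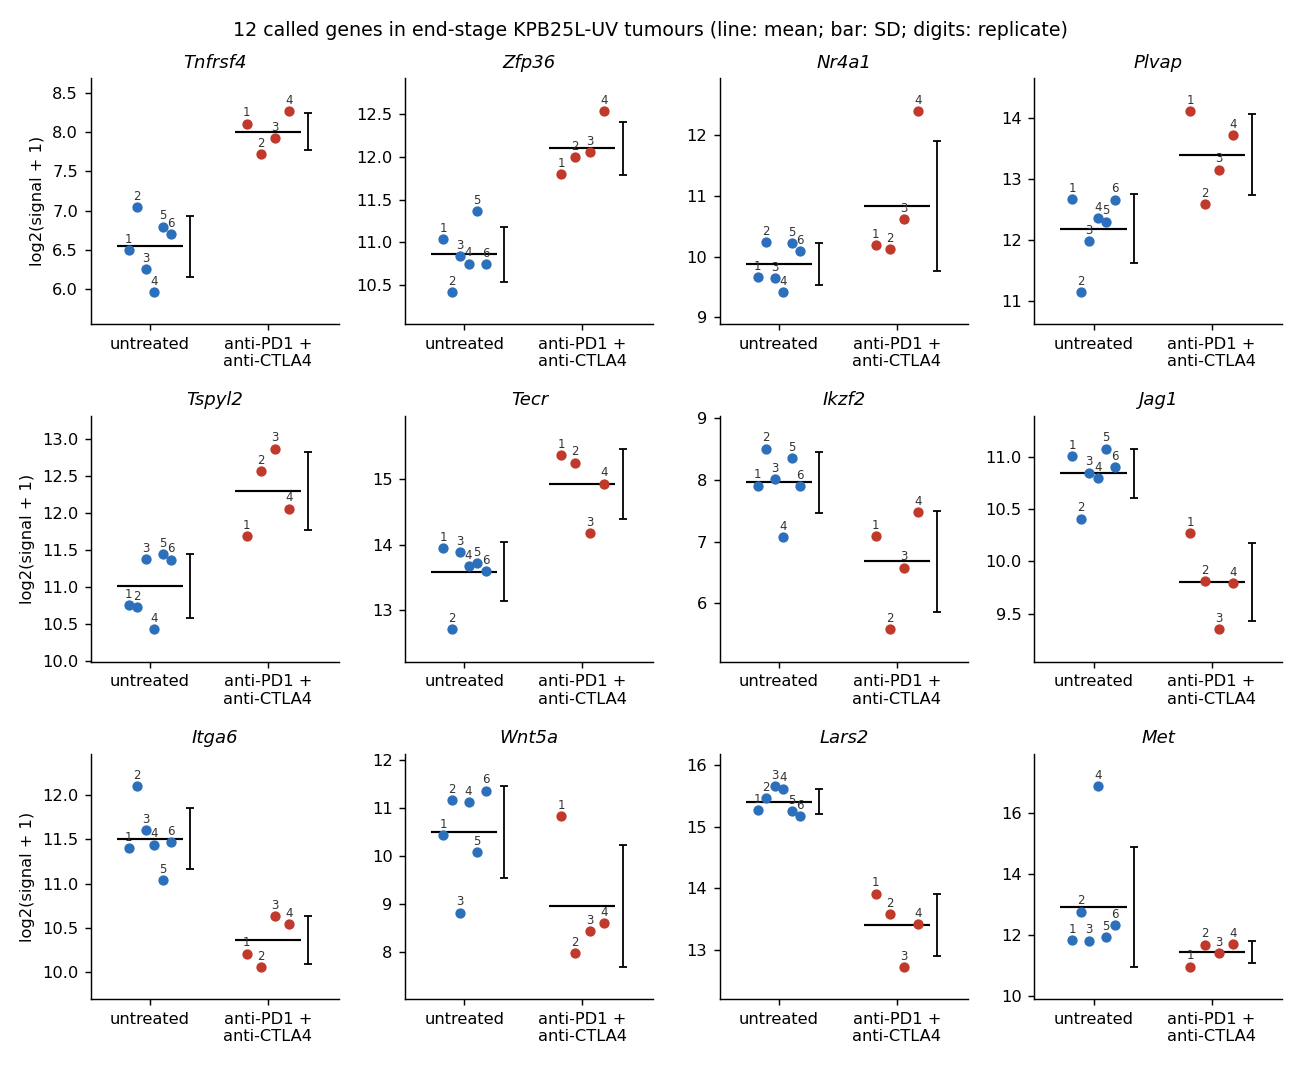
Log2(signal + 1) (y axis) of 12 called genes in each untreated (blue) and treated (red) end-stage KPB25L-UV tumour, with digits giving the replicate, lines the mean and bars the SD. Treated and untreated tumours do not overlap for Tnfrsf4, Zfp36, Tspyl2, Tecr, Jag1, Itga6, Lars2 and Met, and for Met untreated 4 lies at 16.87.

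In the basal keratin list 1 of 16 genes was called with all libraries and 3 without the Sox2 libraries, all lower, and in the junction list 0 and 2 of 20, where 2.62% and 1.72% of all genes were called lower. Itga6, the alpha 6 integrin that binds basal cells to laminin, was 10.21, 10.06, 10.63 and 10.54 in treated 1 to 4 and 11.04 to 12.10 in the untreated. It fell without overlap (-1.15 ± 0.30, limma adjusted p = 0.0108), and the call was lost without treated 2 (adjusted p = 0.0669). Its laminin ligands Lama3 and Lamb3, chains of an epithelial basement membrane laminin, passed only without the Sox2 libraries, at -1.46 ± 0.45 (adjusted p = 0.043) and -1.81 ± 0.49 (adjusted p = 0.0169). With all libraries they had adjusted p-values of 0.719 and 0.273. Cdh1, E-cadherin, was 14.26, 13.89, 12.05 and 12.57 in treated 1 to 4 and 14.15 to 14.80 in the untreated other than untreated 2, which was at 7.19. Treated 1 lay inside that range and the other 3 below it. Without the Sox2 libraries Cdh1 fell by 1.22 (adjusted p = 0.0488) and Dsp, the desmosomal plaque protein desmoplakin, by 2.0 (adjusted p = 0.0441). With all libraries the Cdh1 difference was -0.01 (adjusted p = 0.996), and with treated 3 and 4 left out besides the Sox2 libraries it was -0.33 (adjusted p = 0.719). These 2 tumours also had the lowest means of the KPB25L line markers among the 9 libraries, 9.0 and 9.28 against 10.18 to 10.66, and the part of this in the result was not tested. Of 20 junction genes, 12 differences were above 0 with untreated 2 and 1 without it, with medians of 0.26 and -0.69. Untreated 2, at a list mean of 5.48, is the library with the T11 profile. The mean level of the list was 11.40 and 11.26 in treated 1 and 2, 9.77 and 9.92 in treated 3 and 4, and 11.09 to 11.67 in the untreated other than untreated 2. Pkp2, a desmosomal plaque protein outside these lists, fell with all libraries and without the Sox2 libraries, at -1.56 ± 0.38 (adjusted p = 0.00532), with 10.04, 9.54, 6.71 and 9.08 in treated 1 to 4 against 9.94 to 10.76. It was lost without treated 3, its lowest tumour (-0.85, adjusted p = 0.146).

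Among stromal and signalling genes, Jag1, a membrane ligand of Notch receptors, was 10.27, 9.81, 9.35 and 9.79 in treated 1 to 4 and 10.41 to 11.08 (median 10.88) in the untreated. It fell without overlap, by 1.04 (limma adjusted p = 0.00763), and passed without any 1 library. Wnt5a, a ligand of noncanonical Wnt signalling, was 10.84 in treated 1 and 7.98, 8.44 and 8.60 in treated 2 to 4, against 8.82 to 11.37. Only treated 1 lay inside the untreated range. The call (-1.54 ± 0.44, adjusted p = 0.0194) was lost without treated 2, treated 4, untreated 2 or untreated 6, at an adjusted p of up to 0.153. Col6a3, a chain of type VI collagen, fell by 1.76 (adjusted p = 0.00276), with 14.05, 11.69, 12.28 and 12.53 against 13.01 to 15.56, and was lost without treated 2 (adjusted p = 0.0505). Adamts12, a secreted protease of the ADAMTS family, was 6.39, 5.05, 8.08 and 6.51 against 6.52 to 10.52 and differed by -2.69 ± 0.78 (adjusted p = 0.0214). It was lost without treated 1 or 2 or untreated 2, 4 or 6, at an adjusted p of up to 0.145. These were the only called members of the fibroblast, protease and Wnt and Notch lists, 1 of 18, 1 of 16 and 2 of 18. Over all genes 2.62% were called lower. Col1a1, the main fibrillar collagen, was 18.89, 16.56, 15.64 and 16.77 against 16.17 to 19.18 and was not called (adjusted p = 0.484). The median difference of the fibroblast list was -0.88, and -0.32 without treated 3 and untreated 2.

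Of 15 endothelial genes 1 was called higher, where 3.34% of all genes were: Plvap, the protein of the diaphragms in vessel fenestrae. It was 14.11, 12.59, 13.15 and 13.72 in treated 1 to 4 against 11.15 to 12.67, with treated 2 inside the untreated range. The difference of 1.21 ± 0.35 (limma adjusted p = 0.0206) did not pass without the Sox2 libraries (1.00 ± 0.35, adjusted p = 0.0763), and was lost without treated 1 or 4. Pgk1, a glycolytic enzyme induced in hypoxia, was the 1 called gene of 18 in the hypoxia list, where 2.62% of all genes were called lower. It was 13.28, 13.77, 13.28 and 14.37 against 14.13 to 15.18, with treated 4 above the lowest untreated tumour (-1.02 ± 0.30, adjusted p = 0.0229), and was lost without treated 1, 2 or 3 or untreated 2 (adjusted p up to 0.104).

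Several genes outside the lists differed with less dependence on a single tumour. Tspyl2, a nucleosome assembly protein that slows proliferation, was 11.69, 12.57, 12.87 and 12.06 in treated 1 to 4 and 10.43 to 11.44 (median 11.07) in the untreated. It rose by 1.28 ± 0.18 (limma adjusted p = 8.3e-07) without overlap. Lrrc8b, a subunit of the volume-regulated anion channel, was 9.42, 8.77, 8.69 and 8.82 against 9.62 to 11.81 and fell by 1.51 (adjusted p = 1.42e-06), also without overlap. Tecr, an enzyme of very long chain fatty acid synthesis, was 15.36, 15.25, 14.17 and 14.93 against 12.71 to 13.95 and rose by 1.34 ± 0.24 (adjusted p = 0.000112). Sorbs3, the adhesion adaptor vinexin, was 11.95, 11.35, 12.45 and 12.69 against 10.02 to 11.20 and rose by 1.29 ± 0.25 (adjusted p = 0.000427). Neither overlapped. These 4 genes were called without any 1 library and without the Sox2 libraries. Tspyl2 and Sorbs3 differed little at 7 days (-0.04 and 0.07), and their end-stage effects were higher by 1.32 and 1.21 (adjusted p = 0.000811 and 0.0351). Without the Sox2 libraries the difference between times remained past the threshold for Tspyl2 (adjusted p = 0.00769) and not for Sorbs3 (0.379).

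Samd1, a protein that binds unmethylated CpG islands, and Phf1, a partner of Polycomb repressive complex 2, rose by 1.33 ± 0.29 and 1.25 ± 0.28 (limma adjusted p = 0.00145 and 0.00266), with treated 3 (13.04 and 11.84) the lowest treated tumour for both and just inside the untreated range. Dclk1, a microtubule-associated kinase, was 9.90, 7.49, 6.25 and 8.90 in treated 1 to 4 and 8.60 to 11.63 in the untreated. It fell by 1.95 (adjusted p = 0.000451), with treated 1 and 4 inside the untreated range, and by more than at 7 days (difference of effects -1.99, adjusted p = 0.0198). Macc1, known as a regulator of Met transcription, was 2.61 in treated 3 and 9.38 to 10.31 in the other treated tumours, against 9.65 to 10.08. Its call (-1.90 ± 0.52, adjusted p = 0.0148) ended without treated 3 (-0.10, adjusted p = 0.913). Sorcs2, a sorting receptor, likewise had its lowest value in treated 3 (5.84, against 8.82 to 10.76 in the other treated and 10.02 to 12.63 in the untreated tumours), and -2.11 ± 0.44 became -1.16 without it (adjusted p = 0.069). Dusp4, a phosphatase of MAP kinases, was 8.02, 8.69, 9.93 and 8.97 against 9.66 to 11.62 and fell by 1.88 (adjusted p = 0.00692), lost without treated 1 (adjusted p = 0.0573). Nrep was 9.35 in treated 3 and fell by 1.59 (adjusted p = 0.0135), lost without treated 3 (adjusted p = 0.185) or untreated 3.

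Of the remaining named genes, Tmem252, Sap25, S100a1, Wdr83os and Kantr rose by 1.24 to 1.69, and Amd2 fell by 1.72. Wdr83os lies opposite another gene, and strand-specific counting is not given in the sources used here. Amd2 is a near copy of Amd1, so both are uncertain. Calls were lost without untreated 2 or treated 4 for Tmem252 (limma adjusted p up to 0.107), untreated 2, treated 1 or treated 2 for Sap25 (0.0905), treated 1 for S100a1 (0.0545), treated 2 for Kantr (0.0523), and untreated 4, treated 1 or treated 2 for Amd2 (0.0736). Pcdhga8 and Usp50 rose by 3.78 ± 0.96 and 2.86 ± 0.86, and both values moved with the sequencing run of the untreated tumours. Pcdhga8, a protocadherin whose cluster shares exons, was 13.90, 13.36, 11.52 and 13.29 in treated 1 to 4 and 11.31 to 12.12 in untreated 1 to 4, but 2.74 and 5.64 in untreated 5 and 6. Usp50 was 12.61, 11.70, 9.82 and 11.72, then 9.90 to 10.92, then 5.18 and 4.73. Neither was called against untreated 1 to 4 (1.25 and 1.03, adjusted p = 0.425 and 0.497), and differed by 8.82 and 6.51 against untreated 5 and 6. With all tumours, Pcdhga8 was lost without untreated 5 (adjusted p = 0.0728) and Usp50 without untreated 5 or 6 or treated 1, 2 or 4 (adjusted p up to 0.142).

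Met, the receptor of hepatocyte growth factor and a proto-oncogene, was 10.96, 11.68, 11.40 and 11.71 in treated 1 to 4. In the untreated it ran from 11.81 over 12.13 to 16.87. The groups did not overlap, and untreated 4 stood far above the other 5, which reached at most 12.76. The difference of -1.48 ± 0.38 (limma adjusted p = 0.00869) became -0.69 without untreated 4 (adjusted p = 0.202), and the call was also lost without treated 1. The gene lies at chr6:17463800-17573980 in GENCODE on GRCm38, and its neighbours were high in the same tumour. Of 13 tested protein-coding genes starting within 2 Mb of Met, 10 lay more than 2 above the median of the other 8 tumours in untreated 4 (untreated 2 left out). They run from Mdfic to Cttnbp2 over 2.79 Mb of chromosome 6. Tes, a cytoskeletal adaptor, was 18.34 against 12.70 to 13.84, 33.2-fold above that median, and Cav2, a caveolin, was 17.77 against 11.26 to 12.59, 51.6-fold. Met itself was 34.5-fold and Capza2, an actin capping subunit, 16.5-fold above. Cftr, a chloride channel, was 11.70 against 0.00 to 3.02, and 5.42 in untreated 2. Tfec, within the span, was 1.12 above, and Lsm8, 1385 kb beyond the start of Met, did not differ from the median of the others. The block was not high in the other 57 libraries of KPB25L lines, where its median deviation reached 0.32. It was more than 2 above the median of 263 libraries, some of normal mammary gland, in 6 further untreated end-stage tumours. These were from p53-T7, p53-2245, p53-2151, p53-T6, T12 and p53-T12. In 4 of the 13 genes (Met, Cav2, Cftr and Mdfic) the treated tumours were called lower, where 2.62% of all genes were. The window was placed around Met, itself a called gene. Mdfic was 13.80 in untreated 4, and 11.29 to 11.75 in the other untreated tumours, inside the treated range of 10.83 to 11.93. Whether the DNA differed was not measured.

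**Figure D4:**
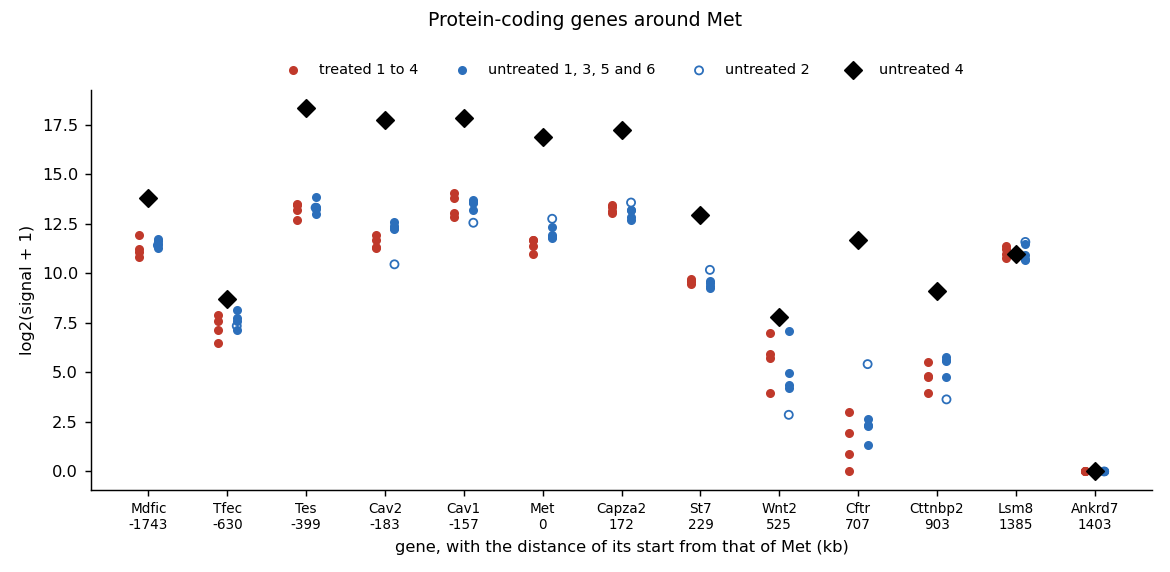
Log2(signal + 1) (y axis) of the 13 tested protein-coding genes starting within 2 Mb of Met, in order along the chromosome with their distance in kb, for treated tumours (red), untreated 1, 3, 5 and 6 (blue), untreated 2 (open) and untreated 4 (black diamonds). Untreated 4 lies at 16.87 for Met and 18.34 for Tes, and within the other tumours at Lsm8.

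AY036118, a noncoding RNA at chr17:39847113-39848035 in GENCODE, was named after its values were seen. It was listed at 0 in all 4 treated tumours and lay between 12.37 and 13.42 in the 6 untreated ones (limma adjusted p = 0.000852). Over the whole table, which includes some normal mammary gland, it was at 0 in 93 of 263 libraries. Among them were all 9 of the run that held the treated tumours. The run of untreated 1 to 4 had 3 of 20 and that of untreated 5 and 6 had 1 of 5. Lars2, the mitochondrial leucyl-tRNA synthetase, moved with it: 13.91, 13.58, 12.72 and 13.41 in treated 1 to 4 against 15.17 to 15.66. The groups did not overlap and the difference was -2.0 ± 0.46 (adjusted p = 0.00335). It passed without any 1 library and also with the spread of the 10 libraries alone (adjusted p = 0.019). The part of the run in both was not tested.

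Differences followed gene length. Called higher genes had a median exonic length of 2820 bases and called lower genes 5409, against 3432 over the genes tested with an annotated length. In 10 bins of the protein-coding genes by length, the median difference fell from 0.28 in the shortest bin (up to 1602 bases) to -0.24 in the longest (from 9592 bases). In the shortest bin 5.11% of genes were called higher and 0.631% lower, and in the longest 1.01% and 6.14%. Treated 1 had the steepest trend, from 0.61 to -0.52 relative to the untreated mean, and treated 3 ran the other way, from -0.29 to 0.12. Untreated 5 also fell, from 0.32 to -0.18. The 7-day comparison had a similar range, 0.38 to -0.25, while the parental comparison went from -0.15 to 0.00. Removing each library's length trend, an analysis added after seeing the data, gave 1344 calls, and 35 of the 37 called genes named here passed. The 2 that did not were Rtp4 (adjusted p = 0.0568) and Junb (0.0509). What set the trend was not tested.

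**Figure D5:**
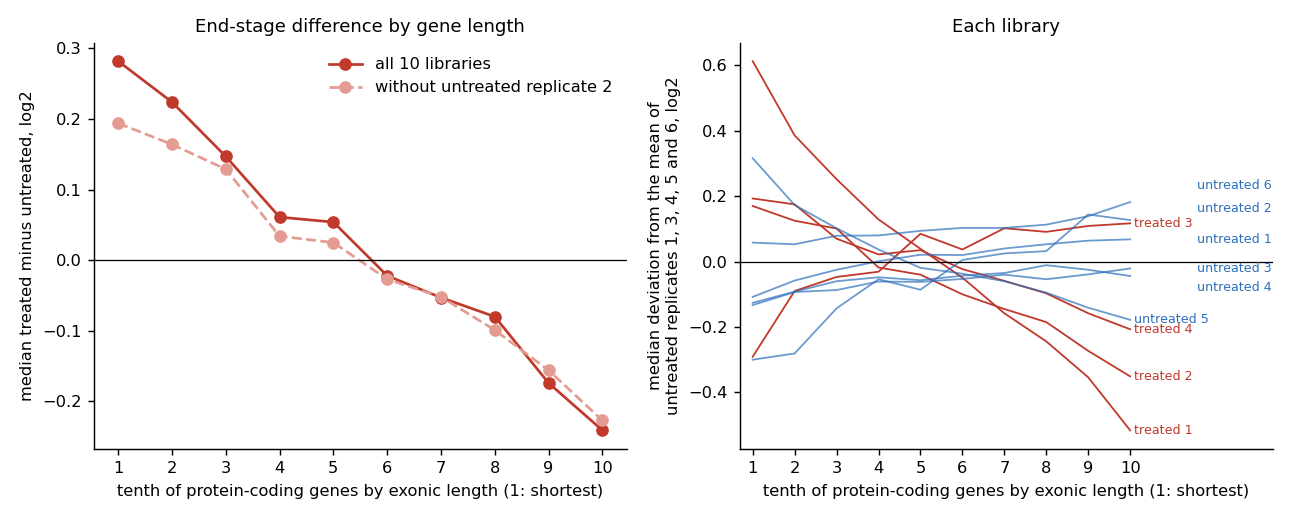
Left: median treated minus untreated log2(signal + 1) (y axis) in 10 bins of protein-coding genes by exonic length (x axis), with all 10 libraries (solid) and without untreated 2 (dashed). Right: median deviation of each treated (red) and untreated (blue) library from the mean of untreated 1, 3, 4, 5 and 6, where treated 1 falls from 0.61 to -0.52 and treated 3 rises from -0.29 to 0.12.

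In the parental KPB25L tumours at the end stage, 1 gene was called (0.0048% of those tested), with 582 at an unadjusted p below 0.05. The effect in KPB25L-UV differed from the parental effect for 52 genes (0.249%), 43 higher (0.206%) and 9 lower (0.0432%). Among the named genes these were Tspyl2 (difference of effects 1.49), Sorbs3 (1.55) and Pcdhga8 (5.78). The parental differences of Tspyl2 and Sorbs3 were -0.21 and -0.26. The count was 6 once every library was shifted to the same median, a step that moved the median difference of effects from 0.10 to -0.04, and 9 without untreated 2. No immune list gene was among the 52: the 298 immune genes had a median difference of 0.44 in KPB25L-UV and -0.37 in KPB25L. The T cell receptor list had medians of 0.71 and -0.30, and the type I interferon list 0.97 and -0.75.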

How the data were processed

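Whole-tumour RNA was sequenced as paired mRNA libraries, per the labels' protocols. STAR, SAMtools, Picard, Salmon and the build mm10 are named in the submitters' processing notes, without versions or order. The authors deposited an expression signal per gene scaled to the upper quartile of each library, per the file headers. From it log2(signal + 1) was taken. Read counts could not be recovered, so the depth given in the report is an estimate. The 1 column that matched no sample was left out.

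A limma model (version 3.58.1, R 4.3.3, trend, two-sided, Benjamini-Hochberg adjustment over 20845 genes) had 1 mean for each group of model, time and therapy over 192 tumour libraries, with 145 residual degrees of freedom. Genes above 0 in at least 4 libraries and in the upper 2/3 by mean were tested, and an adjusted p below 0.05 was called. Effects at different times or in different lines were compared as interaction contrasts. Unless another spread is named, the p-values measure the spread within groups, pooled over all libraries of the fit. This is not the spread of the compared groups alone. For KPB25L-UV at the end stage, the p-values cannot separate therapy from sequencing run.

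Up to 12 genes per direction were named by size of difference among genes called with and without the Sox2 libraries and of more than median level, leaving out predicted genes and pseudogenes. To these were added up to 3 called members per list (or the 2 largest differences, as values) and a fixed panel. The members and lists were chosen with earlier results of these data known. Lengths and coordinates came from GENCODE on GRCm38, matched by symbol for 98.2% of genes tested. The model was tested on simulated data. Alternatives covered the filter, pseudocount, scaling, variance model, samples that set the spread, sequencing run, gene length and left-out libraries. Tables and figures used Python 3.11.15, pandas 2.3.3 and matplotlib 3.10.9.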

Additional observations from a re-analysis of the deposited data

Results flagged for a closer look

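In 240 checks, 29 values stood far from the rest of their group, measured as the gap to the nearest library over the group's range. Chance flags about 1 in 20 groups, and lists and genes share libraries, so these checks are not independent. Untreated 2, the library with the T11 profile, was low in the mean level of the neutrophil (4.4), basal keratin (3.82), luminal (5.15) and junction (5.48) lists. It was also low in Krt14, a basal keratin (3.87), Epcam (6.19), Cdh1 (7.19), Junb (12.24), Wdr83os (10.54) and Tecr (12.71). It was high in Sox2 (10.73), the mesenchymal filament gene Vim (17.27), Brca1 (10.59) and Trp53 (12.58).

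Untreated 4 was low in the T cell receptor list (4.63), in Cd3e (0.00) and in Cd8a (1.33). The same tumour was high in Met (16.87), Amd2 (10.47) and the PD1 ligand gene Pdcd1lg2 (6.01). Among the treated tumours, treated 3 was high in the mitosis list (12.76), Rtp4 (12.88), Pdcd1 (8.48) and the neutrophil gene S100a8 (8.48), and low in Macc1 (2.61). Treated 4 was high in the skeletal muscle (17.47), adipocyte (9.26) and TGF beta (11.66) lists. Treated 2 was high in Igkc (10.63).

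The effect of therapy differed by the interaction test between the end stage and 7 days for 622 genes. Among the named genes these were Sorbs3 (1.21), Tspyl2 (1.32), Dclk1 (-1.99) and Ikzf2 (-1.43), as end-stage minus 7-day effects. Between KPB25L-UV and KPB25L at the end stage it differed for 52 genes, among them Pcdhga8 (5.78), Sorbs3 (1.55) and Tspyl2 (1.49).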

How the results depend on the processing

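No paired analysis was possible because the replicate numbers follow accession order and pair no samples across arms. A fit with run as a term was not run: no run held both arms. For the 1244 end-stage calls, the count was 4 with the spread of the 10 libraries alone (also after length correction), 60 with that of KPB25L-UV libraries, 121 against the untreated tumours of the 14 July run, and 457 to 2348 with 1 library left out (457 without treated 2, 717 without untreated 2, 750 without treated 1, 2348 without treated 3). For the 837 calls without the Sox2 libraries these were 6 (7 after length correction), 10 and 174, and 419 (without untreated 4) to 1695 (without treated 3), with 428 without treated 2 and 1541 with treated 3 and 4 also left out. Quantile normalization gave 504 higher and 641 lower there, and shifting medians 543 and 323, against 478 and 359.

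For the 622 differences from 7 days, the group spread gave 5 (4 after length correction), the KPB25L-UV spread 11, no Sox2 libraries 1044, without treated 3 and 4 as well 1669, and leaving out 1 library 327 (treated 2) to 1262 (treated 4). The 52 differences from KPB25L became 80 with all genes above 0, 3 with the group spread (4 with length correction, which alone gave 15), 6 with shifted medians, 22 with quantile normalization, 30 without the Sox2 libraries, 183 without treated 3 and 4 as well, 180 without the 14 July run and 13 with it alone. Leaving out 1 library gave 9 (untreated 2), 14 (treated 4), 18 (untreated 4), 19 (treated 2), 114 (untreated 5) and 180 (treated 3). The cause of these shifts was not tested.

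Of 37 called named genes, 12 kept their call without any 1 library, 33 without the Sox2 libraries, 35 after length correction, 7 against the 14 July run alone and 2 with the spread of the 10 libraries. The genes named by size of difference had to be called without the Sox2 libraries, so the 33 was partly set in advance. Macc1 turned from -1.90 to 0.06 without treated 3, treated 4 and the Sox2 libraries. Length correction and leaving out treated 3 and 4 were chosen after seeing the data. Of 3312 alternative values for named genes, 228 lost the call and 36 gained it. The sign changed in 95, in 36 genes: Macc1 once, and 94 values past the threshold neither before nor after. The number of tumours, 4 and 6, limits what was detectable.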
